A study of Mus musculus with 6 samples.

Results

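Svip, Ddn, Hepacam, Lurap1, Serpinb6b, Lrtm2, Fam178b, Tmem229a, Smco3 and BC049715 are 10 protein-coding genes with little recorded history in peripheral nerve. They were chosen because their transcripts fell steeply in every Actl6a mutant library, so the fall itself is a description here and carries no test. They are 10 of the 54838 genes in the deposited table, and all 10 were among the 18775 genes that passed the filter on low counts. Each symbol matched 1 row of the table.

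The study compared, by RNA sequencing, sciatic nerves taken at postnatal day 3. The 3 mutant libraries, called CKO here, came from mice of the genotype CnpCre Actl6afl/fl, in which a Cre recombinase named for Cnp, a gene active in myelinating glia, acts on a floxed Actl6a allele. The 3 wild-type (WT) libraries came from mice labelled only as WT. All 6 libraries carry the strain label C57 Bl. The labels do not say how many animals gave each library or whether nerves were pooled, so the spread between libraries may be partly technical, and they do not say whether WT animals carried the Cre or the floxed allele.

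Actl6a encodes a subunit, related to actin, of the chromatin remodelling complex BAF (SWI/SNF). In peripheral nerve, Schwann cells stop dividing, contact axons and switch on myelin genes around birth under the transcription factors Sox10 and Egr2. Remodelling complexes open chromatin at such genes. Most of the 10 genes are known from other organs: Hepacam from astrocytes, Ddn from neurons and kidney podocytes, and Svip from the quality control system of the endoplasmic reticulum.

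Total counts ran from 31404107 to 36760296 per library. Actl6a itself read 42.3, 47.5 and 41.4 CPM (counts relative to the TMM-scaled library total) in CKO and 48.6, 53.3 and 46.2 CPM in WT, a log2 fold change of -0.17 (95% interval -0.40 to 0.05) that was not called. Which exons Cre removes is not stated in the labels, so this whole-gene count does not check the deletion. As background for the marker lists, 10.3% of all genes tested were called lower in CKO and 8.55% higher (edgeR, adjusted p under 0.05). Of 14 myelin genes, 14 fell in CKO, with a median log2 fold change of -2.41. Of 9 Schwann cell markers, 6 fell (Egr2 by 1.76 on the log2 scale, Sox10 by 0.94) and 3 were not called. The 3 were Erbb3 (-0.57, 95% interval -1.02 to -0.13, adjusted p = 0.0758 by edgeR), Ngfr (-0.18) and Cdh19 (0.07). The Schwann list took 0.512%, 0.243% and 0.474% of counts in CKO replicates 1, 2 and 3, against 2.17% to 2.51% in WT. In whole nerve, fewer cells of a type and less RNA per cell cannot be told apart. CKO replicate 2 stands apart: 12 skeletal muscle markers took 6.56% of its counts, against 0.521% in replicate 1, 0.616% in replicate 3 and 0.400% to 0.563% in WT. CKO replicate 1 held the largest share of 7 erythroid markers, 2.29% against 0.779% in replicate 2, 0.723% in replicate 3 and 0.271% to 0.396% in WT. Of the macrophage markers, 6 of 8 rose, and the list took 0.0709% to 0.112% of counts in CKO and 0.0493% to 0.0560% in WT. Of the erythroid markers 4 of 7 rose, and of the skeletal muscle markers 0 of 12 were called. Of the fibroblast markers 3 of 8 rose, of the neuron markers 2 of 9 and of the endothelial markers 1 of 7. The part of these shares in the falls and rises described below was not tested, but the range of each fall over alternative fits, which include leaving out each library, is given.

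Sequence upstream of the genes is shown first, because it bears on how genes that fell together compare at their starts. RefSeq promoters (build GRCm38.p6, the build of the deposited table) were matched for 8 of the 10 genes in 12 windows. Ddn and Smco3 had no entry. The 250 bases before the start are printed for the 3 genes whose RefSeq start is the outer end of the counted gene model: Svip, the highest of the 10 in CPM (chr7:52006019-52006268, minus strand), Lrtm2, the only one of these windows with a match to the motifs marked (chr6:119330767-119331016, minus strand), and Fam178b, with a 28.9-fold fall (chr1:36683184-36683433, minus strand). All run 5′ to 3′ toward the start. Capitals mark matches on either strand to an EGR core (GTGGGNG) or a SOX core (ACAAAG).
Svip: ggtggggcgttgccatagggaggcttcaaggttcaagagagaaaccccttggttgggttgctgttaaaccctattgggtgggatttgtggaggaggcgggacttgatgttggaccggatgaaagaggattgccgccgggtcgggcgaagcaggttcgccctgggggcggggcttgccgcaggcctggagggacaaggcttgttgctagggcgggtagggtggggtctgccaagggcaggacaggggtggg
Lrtm2: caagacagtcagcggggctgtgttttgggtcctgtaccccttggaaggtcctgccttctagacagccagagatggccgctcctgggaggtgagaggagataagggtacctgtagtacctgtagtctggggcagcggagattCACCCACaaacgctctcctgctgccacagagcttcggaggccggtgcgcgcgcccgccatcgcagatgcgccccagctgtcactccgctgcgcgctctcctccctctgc
Fam178b: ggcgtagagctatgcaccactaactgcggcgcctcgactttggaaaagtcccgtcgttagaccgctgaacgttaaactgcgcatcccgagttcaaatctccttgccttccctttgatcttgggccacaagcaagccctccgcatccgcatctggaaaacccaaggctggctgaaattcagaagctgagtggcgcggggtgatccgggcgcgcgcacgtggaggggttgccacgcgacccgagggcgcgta
The match in Lrtm2 is the reverse complement of the EGR core and begins 109 bases before the start. The printed windows of Svip and Fam178b hold neither core. A window at another RefSeq start of Svip holds an EGR core and a window at another start of Fam178b a SOX core. GC content was 62.8% in Svip, 63.2% in Lrtm2 and 60.0% in Fam178b, against a median of 52.4% over the same 250 bases of all 32841 promoters. A match to such short letters is a description of the sequence, not a binding site.

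All 10 genes were called lower in CKO by edgeR's quasi-likelihood test (adjusted p under 0.05), as were 10.3% of the 18775 genes tested. The genes were chosen from this contrast, so nothing is read from the count. Their median log2 fold change was -3.71, against 0.04 over all genes tested. In all 10, every CKO library lay below every WT library, as it did for 21.7% of genes tested. The highest CKO library stood at 5.08% (Smco3) to 24.3% (Lurap1) of the lowest WT library. Over all genes, 159 fell at least as steeply as Lurap1, the shallowest of the 10, and 49 had a log2 fold change of -3 or less, 8 of them in this group.

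**Figure D1:**
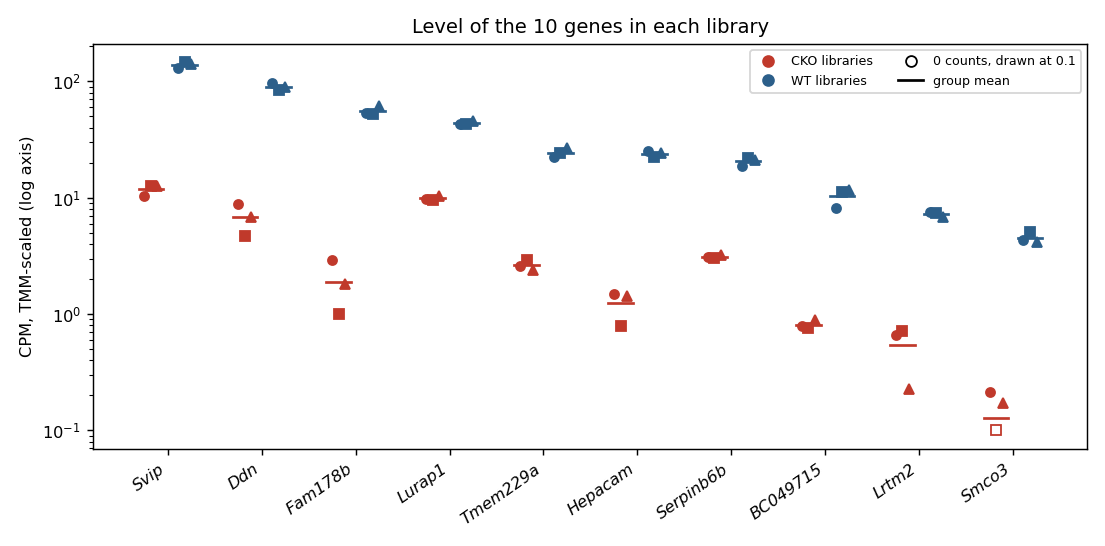
TMM-scaled CPM (log axis) of the 10 genes in the 3 CKO libraries (red, left) and 3 WT libraries (blue, right), ordered by WT mean; circles, squares and triangles are replicates 1, 2 and 3, bars are group means, and the open square is 0 counts drawn at 0.1. The groups do not overlap for any of the 10 genes, and the CKO points of Fam178b, Lrtm2 and Smco3 are spread more widely than their WT points.

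Svip encodes a small protein anchored to the endoplasmic reticulum that binds the ATPase p97 (gene Vcp) and inhibits endoplasmic reticulum-associated degradation (ERAD), the route by which misfolded proteins are extracted and destroyed. Svip (ENSMUSG00000074093, GRCm38 chr7:51997171-52006018, minus strand) had 10.4, 12.7 and 12.6 CPM in CKO libraries, against 130.7, 145.8 and 140.1 CPM in WT libraries. The CKO libraries lay close together and more than 10-fold below the WT libraries. The mean was 11.9 ± 1.27 CPM in CKO and 139 ± 7.65 CPM in WT (SD, n = 3 each), which left 8.55% of the WT level. The log2 fold change was -3.55 (SE 0.11) and stayed between -3.60 and -3.46 in 10 alternative fits. Svip had the highest level per length in both groups among the 8 genes other than Smco3 and BC049715, whose lengths are uncertain: 3.34 ± 0.357 RPKM in CKO and 38.99 ± 2.15 RPKM in WT (CPM per kilobase of exon; SD, n = 3 each).

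Of 26 tested genes of p97 and ERAD, 7 fell (26.9%), 0 rose and 19 were not called, with a median log2 fold change of -0.05. Beside this and each list below stand the shares over all genes tested, 10.3% called lower and 8.55% called higher. Selenos, which encodes an ERAD membrane protein that recruits p97, averaged 78.0 ± 4.85 CPM in CKO and 123 ± 9.16 CPM in WT (SD, n = 3 each), a log2 fold change of -0.66 (adjusted p = 0.00510 by edgeR). Sel1l, the adaptor of the ubiquitin ligase HRD1, had a value of -0.40 on the same scale (adjusted p = 0.0280 by edgeR), and the p97 cofactor Ubxn6 one of -0.43 (adjusted p = 0.0211 by edgeR). These changes were small beside that of Svip, and only the call of Selenos held in all 10 alternatives; the list kept 1 call of 7 with CKO replicate 3 or any 1 WT library left out. Vcp, added here as the direct partner of Svip, averaged 91.9 ± 24.3 CPM in CKO and 91.0 ± 3.71 CPM in WT (SD, n = 3 each), a log2 fold change of 0.01 (95% interval -0.41 to 0.44) that was not called.

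Hepacam encodes GlialCAM, an immunoglobulin-like adhesion molecule that in astrocytes escorts the membrane protein MLC1 and the chloride channel ClC-2 to cell junctions, and whose human gene is mutated in a childhood leukoencephalopathy. Hepacam (ENSMUSG00000046240, GRCm38 chr9:37367351-37386575, plus strand) had 1.49, 0.789 and 1.43 CPM in CKO libraries, against 25.2, 22.4 and 24.4 CPM in WT libraries. CKO replicate 2 was the lowest, and all CKO libraries were far below WT. The mean was 1.23 ± 0.387 CPM in CKO and 24.0 ± 1.46 CPM in WT (SD, n = 3 each), a log2 fold change of -4.27 (SE 0.24), with 5.14% of the WT level left. In 10 alternative fits it ran from -4.42 to -4.04.

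Because Hepacam is best known from the brain, markers of central glia were examined beside it. Of 9 astrocyte and oligodendrocyte markers, 5 were tested and 1 was called lower, and the list took 0.00128% to 0.00944% of counts in CKO, highest in replicate 2, and 0.00133% to 0.00152% in WT. Olig2 had 1 count in the CKO libraries together and 0 in WT, Olig1 had 3 in CKO and 2 in WT, and Mog had 13 in CKO and 12 in WT. The called gene was Mobp, an oligodendrocyte myelin gene, with 24 counts in CKO and 184 in WT (log2 fold change -2.80, adjusted p = 0.0103 by edgeR). Mobp read 0.395, 0.108 and 0.228 CPM in CKO libraries and 1.47, 1.21 and 2.54 CPM in WT libraries. It thus passed the low-count filter through WT, the group where it is high, and its fall rests on few CKO counts. Of the astrocyte markers, Gfap had 50 counts in CKO and 69 in WT, Slc1a2 had 270 in CKO and 344 in WT, and Aldh1l1 had 389 in CKO and 629 in WT. Hepacam had 777 to 894 counts in each WT library. The part of central glia in the level or fall of Hepacam was not tested. In CKO replicate 2 the astrocyte marker Aqp4, a water channel that skeletal muscle also makes, read 99.0 CPM, against 5.86 CPM in replicate 1, 2.65 CPM in replicate 3 and 1.76 to 3.20 CPM in WT. This library is also the one with the high muscle share.

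Of 10 tested partners and relatives of GlialCAM, 3 fell (30%), 3 rose and 4 were not called, with a median log2 fold change of -0.01. Gpr37l1, a glial receptor related to Gpr37, averaged 11.5 ± 3.92 CPM in CKO and 69.0 ± 2.58 CPM in WT (SD, n = 3 each), a log2 fold change of -2.58 (adjusted p = 0.00204 by edgeR). Kcnj10, the inward rectifier potassium channel of glia, averaged 51.6 ± 14.3 CPM in CKO and 143.7 ± 6.49 CPM in WT (log2 fold change -1.48, adjusted p = 0.00478 by edgeR; SD, n = 3 each). Clcn2, which encodes ClC-2, averaged 22.7 ± 3.99 CPM in CKO and 47.6 ± 3.00 CPM in WT (log2 fold change -1.07, adjusted p = 0.00397 by edgeR; SD, n = 3 each). The gap junction gene Gja1 moved the other way, with 85.5 ± 4.32 CPM in CKO and 48.3 ± 2.22 CPM in WT (log2 fold change 0.82, adjusted p = 0.00151 by edgeR; SD, n = 3 each). These 4 calls held in all 10 alternatives, whereas the count of genes that rose went to 1 of 3 with CKO replicate 3 or any 1 WT library left out. Mlc1 and the relative Hepacam2 did not pass the low-count filter, and Hepacam2 had 44 counts over the 6 libraries.

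Ddn encodes dendrin, a protein of postsynaptic sites in neurons and of the slit diaphragm between podocyte foot processes in the kidney, where it binds the scaffold MAGI2. Ddn (ENSMUSG00000059213, GRCm38 chr15:98803777-98809490, minus strand) had 8.77, 4.73 and 6.82 CPM in CKO libraries, against 96.7, 84.7 and 89.9 CPM in WT libraries. CKO replicate 2 was again the lowest, at 5.23% of the WT mean, and CKO replicate 1 the highest, at 9.70%. The mean was 6.78 ± 2.02 CPM in CKO and 90.4 ± 5.99 CPM in WT (SD, n = 3 each), a log2 fold change of -3.74 (SE 0.23), or -3.97 to -3.54 in 10 alternative fits. Per length, Ddn stood at 1.79 ± 0.534 RPKM in CKO and 23.9 ± 1.58 RPKM in WT (SD, n = 3 each), above 87.8% of the genes tested in WT.

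Of 10 tested dendrin partners and slit diaphragm genes, 2 fell (20%), 1 rose and 7 were not called (median log2 fold change 0.01). Magi2 averaged 14.9 ± 3.01 CPM in CKO and 38.6 ± 2.77 CPM in WT (SD, n = 3 each), a log2 fold change of -1.37 (adjusted p = 0.00256 by edgeR) that was called in all 10 alternatives. Its relative Magi1 had a log2 fold change of -0.69 (adjusted p = 0.0178 by edgeR), a call lost with any 1 WT library left out. The actin cross-linker Actn4 had 0.34 (adjusted p = 0.0422 by edgeR), a call lost in 7 of 10 alternatives. The podocyte gene Nphs1 did not pass the filter, with 9 counts in the CKO libraries together and 8 in WT. The 5 podocyte markers together took 0.00699% to 0.0103% of counts in CKO and 0.00833% to 0.00948% in WT, and 0 of their 3 tested genes were called.

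Lurap1 encodes an adaptor that couples the MRCK kinases to an unconventional myosin in retrograde flow of actomyosin at the front of moving cells. Lurap1 (ENSMUSG00000028701, GRCm38 chr4:116132406-116151338, minus strand) had 9.83, 9.57 and 10.4 CPM in CKO libraries, against 42.9, 43.0 and 45.5 CPM in WT libraries. Both groups were tight, and more of the transcript was left than for any other of the 10 genes, 21.8% to 23.8% of the WT mean per library. The mean was 9.94 ± 0.433 CPM in CKO and 43.8 ± 1.48 CPM in WT (SD, n = 3 each), a log2 fold change of -2.14 (SE 0.090) that ran from -2.18 to -2.12 in 10 alternative fits.

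Lurap1l, the close relative of Lurap1, moved the other way, with 32.2, 23.8 and 31.3 CPM in CKO libraries and 15.0, 17.9 and 16.7 CPM in WT libraries. The groups did not overlap. The log2 fold change was 0.81 (adjusted p = 0.0109 by edgeR), and the call was lost without WT replicate 1 or WT replicate 3. Of 8 tested LURAP1 partners and relatives, 1 fell (12.5%), 1 rose (Lurap1l) and 6 were not called, with a median log2 fold change of -0.07. The gene that fell was Cdc42bpa, the alpha form of MRCK, at -0.52 (adjusted p = 0.0165 by edgeR; lost with any 1 WT library left out).

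Serpinb6b belongs to a group of intracellular serine protease inhibitors (clade B serpins) that is expanded in mice relative to humans. Serpinb6b (ENSMUSG00000042842, GRCm38 chr13:32965209-32979067, plus strand) had 3.13, 3.01 and 3.23 CPM in CKO libraries, against 18.9, 22.0 and 20.97 CPM in WT libraries. The CKO libraries were nearly alike, and the spread was larger in WT. The mean was 3.12 ± 0.107 CPM in CKO and 20.6 ± 1.56 CPM in WT (SD, n = 3 each), a log2 fold change of -2.72 (SE 0.12), or -2.79 to -2.69 in 10 alternative fits.

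Serpinb6a, a paralog, averaged 221 ± 35.9 CPM in CKO and 206 ± 17.96 CPM in WT (SD, n = 3 each), a log2 fold change of 0.10 (95% interval -0.23 to 0.43) that was not called. Serpinb6c had a log2 fold change of 0.51 (95% interval -0.17 to 1.19) and was not called either. Of the 2262 exonic bases of Serpinb6b, 2.92% of 50-base words also occur in transcripts of other genes, mostly Serpinb6c. Serpinb6d had 0 counts and Serpinb6e 7 counts over the 6 libraries. Of 10 tested clade B serpins other than Serpinb6b, 0 fell, 4 rose and 6 were not called, with a median log2 fold change of 0.66, against 0.04 over all genes. The count that fell became 1 without the low-count filter and without CKO replicate 2. Serpinb9b, not called, leaned down at -1.76 (95% interval -2.98 to -0.54, adjusted p = 0.0561 by edgeR). It had 6, 5 and 3 counts in CKO libraries and 11, 28 and 14 counts in WT libraries. Serpinb11 had 35, 19 and 20 counts in CKO libraries and 1 count in each WT library, so it passed the filter through CKO, and its ratio of 27.0 (95% exact interval 8.88 to 133.9, counting error only) rests on 3 WT counts. It was called higher (adjusted p = 0.00190 by edgeR). Serpinb9 (log2 fold change 0.57, adjusted p = 0.0138 by edgeR), Serpinb1a (1.15, adjusted p = 0.0331 by edgeR) and Serpinb8 (0.74, adjusted p = 0.0373 by edgeR) lost their calls with any 1 WT library left out.

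Lrtm2 encodes a membrane protein with leucine-rich repeats, a fold common among synaptic and glial adhesion molecules. Lrtm2 (ENSMUSG00000055003, GRCm38 chr6:119315133-119330766, minus strand) had 0.668, 0.717 and 0.228 CPM in CKO libraries, against 7.57, 7.46 and 6.83 CPM in WT libraries. These are 22, 20 and 8 counts in CKO and 252, 259 and 250 counts in WT. CKO replicate 3 held the lowest value of this gene, and the WT libraries lay close together. The mean was 0.538 ± 0.269 CPM in CKO and 7.29 ± 0.397 CPM in WT (SD, n = 3 each), a log2 fold change of -3.77 (SE 0.38), which ran from -4.03 to -3.39 in 10 alternative fits.

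The relative Lrtm1 read 3.61, 68.7 and 4.40 CPM in CKO libraries and 7.15, 3.37 and 2.84 CPM in WT libraries. Its groups overlapped, the high value was in the library with the large muscle share, and its log2 fold change of 2.52 (95% interval -0.90 to 5.94) was not called. Of 26 tested leucine-rich repeat membrane proteins, 3 fell (11.5%), 3 rose and 20 were not called (median log2 fold change 0.31). Slitrk5, a synaptic adhesion molecule, averaged 1.62 ± 0.351 CPM in CKO and 5.16 ± 0.330 CPM in WT (log2 fold change -1.66, adjusted p = 0.00318 by edgeR; SD, n = 3 each). Lrfn4, of a related synaptic family, averaged 12.7 ± 1.29 CPM in CKO and 27.8 ± 1.599 CPM in WT (log2 fold change -1.13, adjusted p = 0.00158 by edgeR; SD, n = 3 each). Lrrtm2, a neurexin ligand, had a log2 fold change of 1.63 (adjusted p = 0.00551 by edgeR), and Flrt2, a guidance cue, 0.68 (adjusted p = 0.00548 by edgeR). These 4 calls held in all 10 alternatives.

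Fam178b is a relative of Slf2, a partner of the SMC5/6 complex that guards chromosome integrity; the role of Fam178b itself is little known. Fam178b (ENSMUSG00000046337, GRCm38 chr1:36562692-36683183, minus strand) had 2.91, 1.004 and 1.80 CPM in CKO libraries, against 53.1, 52.4 and 61.2 CPM in WT libraries. The CKO libraries were spread, with 28 counts in replicate 2 and 96 counts in replicate 1, yet all were far below WT. The mean was 1.91 ± 0.960 CPM in CKO and 55.6 ± 4.86 CPM in WT (SD, n = 3 each), which left 3.43% of the WT level. The log2 fold change was -4.85 (SE 0.37), the third lowest among all genes tested, and ran from -5.29 without CKO replicate 1 to -4.57 in 10 alternative fits.

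Slf2 averaged 56.5 ± 17.4 CPM in CKO and 43.3 ± 1.73 CPM in WT (SD, n = 3 each), a log2 fold change of 0.38 (95% interval -0.10 to 0.87) that was not called. Of 10 tested genes of the SMC5/6 group, 1 fell (10%), 0 rose and 9 were not called (median log2 fold change 0.13). The gene that fell was Smc5, at -0.33 (adjusted p = 0.0497 by edgeR), a call lost in 8 of 10 alternatives.

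Tmem229a encodes a membrane protein of little known role. Tmem229a (ENSMUSG00000048022, GRCm38 chr6:24951141-24956297, minus strand) had 2.58, 2.90 and 2.40 CPM in CKO libraries, against 22.2, 24.4 and 26.7 CPM in WT libraries. The CKO libraries were close together and none approached WT. The mean was 2.63 ± 0.257 CPM in CKO and 24.4 ± 2.25 CPM in WT (SD, n = 3 each), a log2 fold change of -3.22 (SE 0.14), or -3.30 to -3.15 in 10 alternative fits. Its paralog Tmem229b went the other way: it read 11.1, 11.2 and 11.3 CPM in CKO libraries and 5.32, 6.31 and 5.47 CPM in WT libraries. The groups did not overlap, and the log2 fold change of 0.97 (adjusted p = 0.00335 by edgeR) was called in all 10 alternatives.

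Over the 12 paralogs and relatives of the 10 genes, 7 were tested: 0 fell, 3 rose (Tmem229b, Lurap1l and Smco4) and 4 were not called. Over all genes tested, 10.3% were called lower and 8.55% higher. Smco4 averaged 12.8 ± 1.10 CPM in CKO and 8.35 ± 0.402 CPM in WT (SD, n = 3 each; log2 fold change 0.61, adjusted p = 0.0148 by edgeR), a call lost without CKO replicate 3, with any 1 WT library left out and with the replicate number in the fit. The other 2 Smco relatives did not pass the filter: Smco1 had 114 counts over the 6 libraries, 88 of them in CKO replicate 2, and Smco2 had 0.

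**Figure D2:**
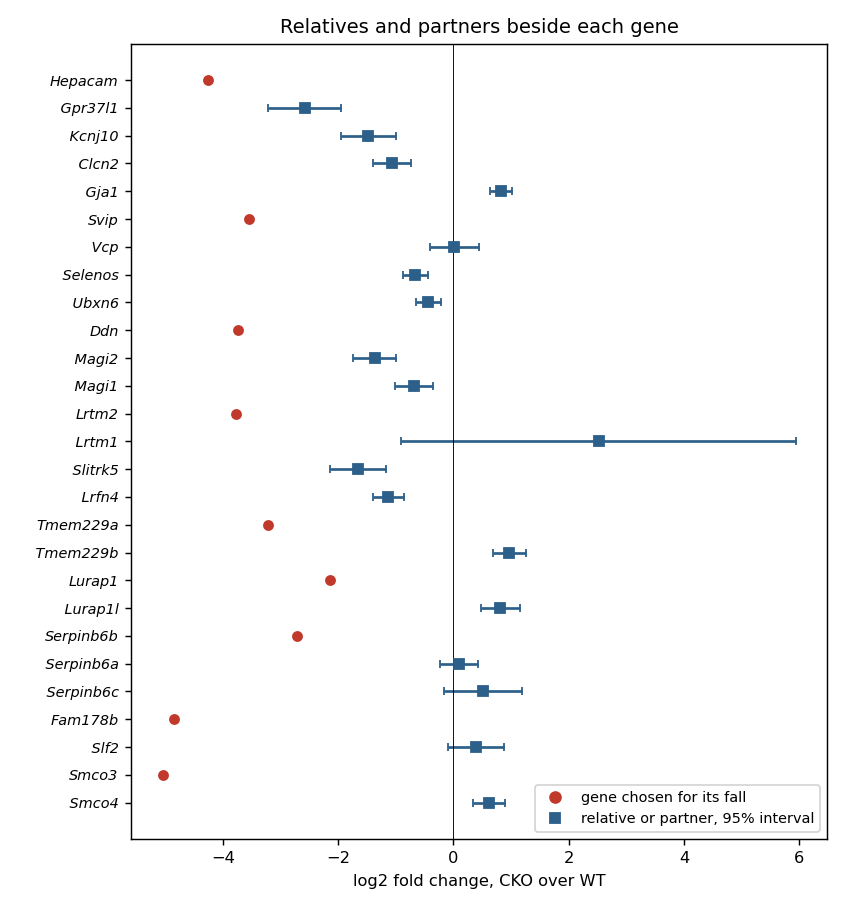
Log2 fold change (CKO over WT) of 9 of the 10 genes (red circles) with tested relatives and some of the named partners listed under each (blue squares, bars are 95% intervals). The partners drawn were picked by hand. Called genes named in the text but not drawn are Sel1l, Cdc42bpa and Smc5 (lower) and Lrrtm2, Flrt2, Actn4, Serpinb1a, Serpinb8, Serpinb9 and Serpinb11 (higher). The red points lie between -5.04 and -2.14, whereas Tmem229b, Lurap1l, Smco4 and Gja1 lie right of 0 with intervals that leave it out.

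Smco3, which encodes a membrane protein with a coiled coil, and BC049715, named after a cDNA clone and without a described role, lie on opposite strands at the same place in the genome. Smco3 (ENSMUSG00000043298, GRCm38 chr6:136829927-136835452, minus strand) had 7, 0 and 6 counts in CKO libraries, against 143, 176 and 153 counts in WT libraries. These are 0.212, 0 and 0.171 CPM in CKO and 4.30, 5.07 and 4.18 CPM in WT. Smco3 was thus not detected in CKO replicate 2, where 0 counts allow a level of up to 0.108 CPM (3 counts, counting error only). The mean was 0.128 ± 0.113 CPM in CKO and 4.52 ± 0.481 CPM in WT (SD, n = 3 each). The log2 fold change was -5.04 (SE 0.58), the second lowest among all genes tested, but its size rests on few counts and ran from -5.54 to -4.54 in 10 alternative fits.

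BC049715 (ENSMUSG00000047515, GRCm38 chr6:136827626-136840662, plus strand) had 26, 21 and 31 counts in CKO libraries, against 273, 393 and 429 counts in WT libraries. The CKO values of 0.789, 0.753 and 0.885 CPM lay close together, and the WT values of 8.21, 11.3 and 11.7 CPM were more spread, with replicate 1 lowest. The mean was 0.809 ± 0.0682 CPM in CKO and 10.4 ± 1.93 CPM in WT (SD, n = 3 each), a log2 fold change of -3.68 (SE 0.21), or -3.83 to -3.59 in 10 alternative fits.

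The values of these 2 genes are not separate measurements of 2 transcripts. Of the 2298 exonic bases of Smco3, 2202 (95.8%) are also exonic in BC049715 on the other strand, which leaves 96 bases of its own (chr6:136835357-136835452). Of the 6462 exonic bases of BC049715, 3935 are shared with no other gene. The counting used no strand and, per the file headers, no option for fragments that touch several genes. A fragment that lies wholly in shared bases therefore went to neither gene, and the counts of Smco3 rest largely on fragments that reach its unshared end. The level per length of Smco3 is an underestimate of unknown size, and reads from either strand cannot be told apart. Smaller overlaps touch Lurap1 (10.9% of its exonic bases, with Pomgnt1), Ddn (4.68%, with B130046B21Rik) and Fam178b (3.73%, with D430040D24Rik). Svip, Tmem229a, Serpinb6b, Lrtm2 and Hepacam share no exonic base with another gene.

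Within 100 kb of Smco3, Art4 was also lower in CKO. Art4, an ADP-ribosyltransferase gene whose human protein carries the Dombrock blood group, lies on the minus strand at chr6:136848451-136857733, 7789 bases beyond the end of BC049715. It read 5.74, 2.80 and 6.62 CPM in CKO libraries and 32.5, 35.7 and 32.7 CPM in WT libraries. The groups were far apart. Its log2 fold change came to -2.73 (95% interval -3.46 to -1.99; adjusted p = 0.00277 by edgeR), called in all 10 alternatives. Wbp11, on the other side, which shares 325 exonic bases with BC049715, had a log2 fold change of -0.19 (95% interval -0.44 to 0.05) and was not called. Mgp (0.46) and H2afj (-0.14) were not called, and Arhgdib, a gene active in blood cells, rose by 0.79 on the log2 scale (adjusted p = 0.00520 by edgeR).

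**Figure D3:**
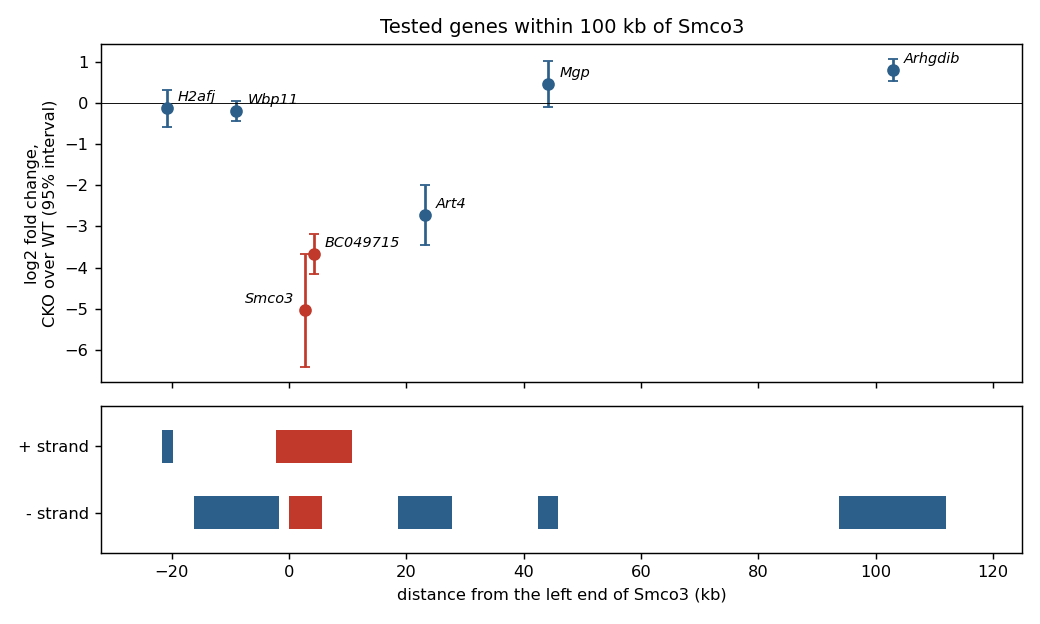
Upper panel: log2 fold change (CKO over WT) with 95% interval of the tested genes within 100 kb of Smco3, at the middle of each gene; lower panel: extent of each gene on its strand, as distance in kb from the left end of Smco3. Smco3 and BC049715 (red) and Art4 lie below -2, whereas Wbp11, H2afj and Mgp have intervals that include 0 and Arhgdib lies above 0.

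Around all 10 genes, 44 tested genes that are not among the 10 lie within 100 kb: 7 fell (15.9%), 7 rose (15.9%) and 30 were not called. Over all genes, 10.3% were called lower and 8.55% higher. Sema4c, a semaphorin gene 4343 bases from Fam178b, averaged 40.9 ± 6.95 CPM in CKO and 102 ± 7.13 CPM in WT (SD, n = 3 each), a log2 fold change of -1.32 (adjusted p = 0.00190 by edgeR). D430040D24Rik, which overlaps the end of Fam178b on the other strand, had a log2 fold change of -1.73 (adjusted p = 0.00782 by edgeR). Kmt2d, a histone methyltransferase gene near Ddn, had -0.83 (adjusted p = 0.00737 by edgeR). Near Ddn, 2 genes rose on the log2 scale: Wnt10b by 1.04 (adjusted p = 0.00239 by edgeR) and the chaperone gene Fkbp11 by 0.75 (adjusted p = 0.00674 by edgeR). These 5 calls held in all 10 alternatives. Pomgnt1, which overlaps Lurap1, had a log2 fold change of -0.50 (adjusted p = 0.00869 by edgeR; lost without WT replicate 3), and B130046B21Rik, which overlaps Ddn, -0.77 (adjusted p = 0.0558 by edgeR, not called). Pik3r3 near Lurap1 (-0.35, adjusted p = 0.0428 by edgeR) and Cnnm3 near Fam178b (-0.44, adjusted p = 0.0430 by edgeR) were also called lower, each lost in 6 of 10 alternatives. Gas2, 2196 bases from Svip, had a log2 fold change of -0.32 (adjusted p = 0.218 by edgeR) and was not called.

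Set side by side per length, the 10 genes span a wide range of levels. Smco3 and BC049715 are left out of the order, because their place depends on the length used. Over their exonic length, Smco3 stood at 0.0557 ± 0.0490 RPKM in CKO and 1.97 ± 0.209 RPKM in WT, and BC049715 at 0.125 ± 0.0105 RPKM in CKO and 1.61 ± 0.298 RPKM in WT (SD, n = 3 each). Over the bases they share with no other gene, Smco3 came to 1.33 ± 1.17 RPKM in CKO and 47.0 ± 5.01 RPKM in WT, and BC049715 to 0.206 ± 0.0173 RPKM in CKO and 2.65 ± 0.489 RPKM in WT (SD, n = 3 each). Neither length is exact, since fragments can reach across the boundary. Of the other 8 genes, the order of mean RPKM in CKO was Svip, Ddn, Lurap1 (1.69 ± 0.0735), Serpinb6b (1.38 ± 0.0473), Fam178b (0.597 ± 0.301), Tmem229a (0.509 ± 0.0498), Hepacam (0.369 ± 0.116) and Lrtm2 (0.131 ± 0.0656; SD, n = 3 each). There the libraries of Ddn overlapped those of Lurap1 and Serpinb6b, and the libraries of Fam178b overlapped those of Tmem229a and Hepacam. In WT the order was Svip, Ddn, Fam178b (17.4 ± 1.52), Serpinb6b (9.12 ± 0.689), Lurap1 (7.45 ± 0.252), Hepacam (7.17 ± 0.436), Tmem229a (4.74 ± 0.436) and Lrtm2 (1.78 ± 0.0969; SD, n = 3 each). Only the libraries of Lurap1 and Hepacam overlapped in this order. The median over all genes tested was 3.98 RPKM in WT, and 7 of these 8 genes stood above it. Fam178b stood in the fifth place in CKO and in the third place in WT.

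**Figure D4:**
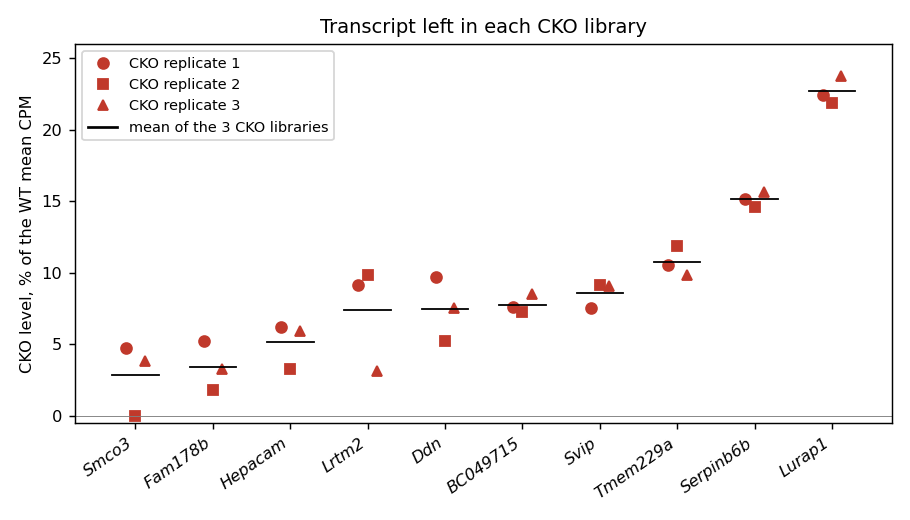
Level of each of the 10 genes in each CKO library as a percentage of its WT mean CPM, ordered by the mean of the 3 CKO libraries (black bars); circles, squares and triangles are CKO replicates 1, 2 and 3. The means run from 2.83% for Smco3 to 22.7% for Lurap1, and the replicates of Hepacam, Ddn and Fam178b are lowest in replicate 2.

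The median over the 10 genes was 8.37%, 8.17% and 8.02% of the WT mean in CKO replicates 1, 2 and 3. The genes were chosen for steep falls in every CKO library, so these close medians are a description only. Single genes differed more between CKO replicates 1, 2 and 3: Fam178b stood at 5.24%, 1.81% and 3.24%, and Lrtm2 at 9.16%, 9.84% and 3.13%. CKO replicate 2 was the lowest CKO library for 7 of the 10 genes. Over all genes called lower, 62.0% were lowest there, and over all genes tested 45.2%. Between libraries, the coefficient of variation of the 10 genes ran from 3.43% (Serpinb6b) to 88.1% (Smco3) in CKO and from 3.38% (Lurap1) to 18.5% (BC049715) in WT. It was higher in CKO for 8 of the 10 genes, as for 76.3% of genes tested.

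**Figure D5:**
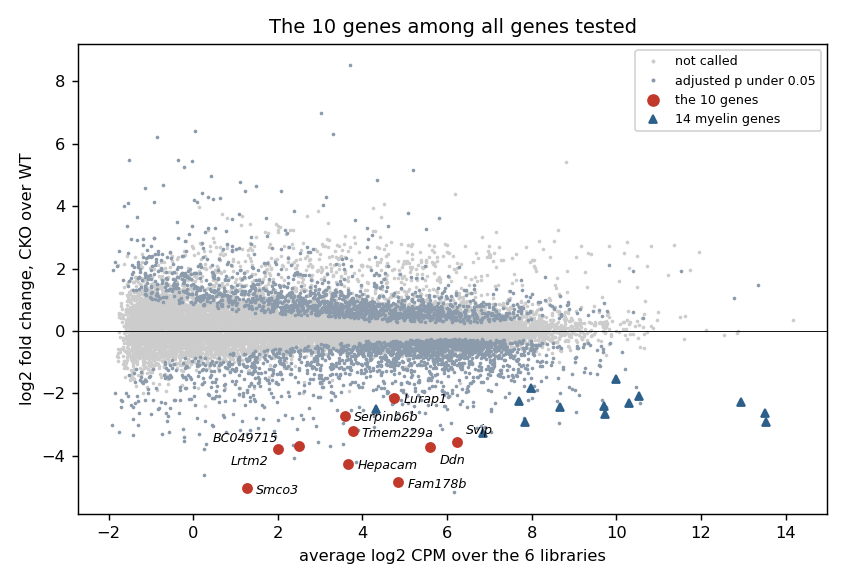
Log2 fold change (CKO over WT) against average log2 CPM for the 18775 genes tested; grey points were not called, blue-grey points were called, the 10 genes are red circles and the 14 myelin genes blue triangles. The 10 genes lie between -5.04 and -2.14 at low and middle abundance, and most myelin genes lie at higher abundance.

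Tested genes most like each of the 10 in profile were found by the mean absolute difference of centred log2 CPM over the 6 libraries. The candidates were 13058 genes above a minimum mean level, without the 10 genes themselves and without symbols of the Gm or Rik kind. As the 10 genes were chosen for their fall, the measure largely matches genes by the size of that fall. Whether matched genes share a control was not tested. A pseudocount of 0.5 CPM was added, which compresses the falls of low genes, so for these the measure does not match the fitted fold change. Svip and BC049715 were both nearest to Ndp (0.14 and 0.12), which encodes the secreted ligand norrin, and then to the desaturase relative Fads6 (0.19 and 0.14). Tmem229a was nearest to Ndp (0.135) among the candidates, and to BC049715 (0.132) among the 10 genes. Ddn was nearest to the lysophospholipid transporter gene Mfsd2a (0.16) and to Fa2h (0.19), the hydroxylase of myelin lipids, and Hepacam to Mfsd2a (0.091). Among the 10 genes themselves, Ddn and Hepacam were nearest to each other (0.099). Lurap1 was nearest to Syt11 (0.063) and AI197445 (0.065), and Serpinb6b to the lipid enzyme genes Acat2 (0.089) and Elovl6 (0.12). Smco3 was nearest to the potassium channel gene Kcnk1 (0.099) and the sterol synthesis gene Lss (0.11), whose fitted log2 fold changes were -3.16 and -3.09, against -5.04 for Smco3, and Lrtm2 to the receptor gene Gpr37 (0.18) and to Lss (0.22). Fam178b had no close match, with Slc36a2 at 0.35 and Mfsd2a at 0.39.

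Promoter windows of 300 bases, from 250 before to 50 after each RefSeq start, were searched on both strands for 5 short motifs, and the share of all 32841 promoters with each motif is given beside the count of genes. The SOX core was present for 3 of 8 genes (BC049715, Fam178b and Hepacam) and in 18.7% of all promoters. The EGR core was present for 4 of 8 (Lrtm2, Lurap1, Serpinb6b and Svip) and in 31.6% of all promoters. No gene of the 8 had both cores. The E-box (CANNTG) was present for 7 of 8 and in 72.3% of all promoters. The TEAD core (GGAATG) and the TATA box (TATAAA) were present for 0 of 8, and in 14.7% and 13.6% of all promoters. Genes with several starts had several windows, which raises their chance of a match. The E-box pattern can overlap the ends of other motifs.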

How the data were processed

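The authors deposited 1 table of raw counts of fragments per gene for 6 sciatic nerve libraries. Per the file headers, featureCounts 1.6.1 counted fragments with both ends mapped and a mapping quality of at least 20 on exons of Ensembl GRCm38 release 95, without strand. The aligner's settings were not given in the sources used here. Subread 2.0 and DESeq2 1.3 are also named in the submitters' processing notes. Groups came from the genotype labels. Symbols came from GENCODE M21, and 115 of 54838 identifiers had none.

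Genes were filtered with filterByExpr (minimum count 10) and tested with edgeR 4.0.16 in R 4.3.3 (TMM, robust quasi-likelihood F test, 2-sided, 4 residual degrees of freedom), with Benjamini-Hochberg adjustment over 18775 genes and a threshold of 0.05. The script was tested on simulated data. CPM used TMM library sizes, and RPKM divided CPM by the deposited exonic length. Intervals cover 95% and come from the same fit. Total counts set the precision, and intervals cover counting error and the spread between libraries only.

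The 10 genes, the context lists and the motifs were chosen with earlier results of these data known. The genes named besides the 10 were, per list, up to 4 called genes with the smallest p, and all tested relatives. Neighbours that overlap or were called, otherwise the nearest, and 2 most similar genes per member were also named. Vcp, Sox10, Egr2, Erbb3, Ngfr, Cdh19, Aqp4, Mog, Olig1, Olig2, Gfap, Mobp, Slc1a2, Aldh1l1, Nphs1 and Serpinb9b were added after their values were seen. Some genes the rule names are not reported here. The 37 mitochondrial genes had 0 counts.

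Alternatives were DESeq2 1.42.0 size factors, its Wald test, no low-count filter, the replicate number as a block, and each library left out.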

Additional observations from a re-analysis of the deposited data

How the results depend on the processing

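All 10 genes kept their direction in all 10 alternatives. They were chosen for steep falls in every CKO library of these data, so this outcome was largely fixed by the choice. Their median log2 fold change of -3.71 ran from -3.81 to -3.61. Among the 10 genes, the sizes for Fam178b, Lrtm2 and Smco3 moved most when a CKO library was left out. Smco3 then ran from -5.54 to -4.54, against -5.04 with an SE of 0.58 in the main fit. The count of genes called over the whole table changed with the processing. The main counts of 1929 lower and 1605 higher became 2353 and 2254 with DESeq2's Wald test. With 1 library left out they ran from 790 to 3398 lower and from 449 to 3425 higher. The most were called without CKO replicate 2, and the fewest without WT replicate 3 (lower) or WT replicate 1 (higher). Without CKO replicate 3, 1166 were lower and 835 higher, and with any 1 WT library left out at most 829 and 483. The count of context genes called higher was 14, and 5 to 25 with 1 library left out. Same-numbered libraries did not deviate together (correlations -0.289, -0.299 and -0.0961). Deviations from the group mean cancel out within such small groups, so these correlations cannot settle whether the numbers pair the samples. The replicate block left 1108 genes lower, 744 higher and 9 context genes higher. Of 41 other named genes called, 23 kept their call in all 10 alternatives. The genes that turned direction were near 0 and not called, and with 1 library left out they ran from -0.13 (without CKO replicate 2) to 0.17 for Robo4, against 0.03, with -0.05 without WT replicate 2, from -0.25 to 0.049 (without CKO replicate 2) for H2afj, against -0.14, and from -0.049 to 0.0017 (without WT replicate 3) for Prkag1, against -0.01. Depth limits Smco3 and Lrtm2, with 0 to 22 counts per CKO library.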
